A study of Sus scrofa with 3 samples.

Results

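Genes of fatty acid uptake and of the lipoprotein lipase system were followed in visceral adipose tissue of miniature pigs. The rule named 10 genes of type mRNA, of which 8 had a row in the deposited values of 22826 mRNA genes. These were GPIHBP1, LMF1, ANGPTL4, CD36, SLC27A1, ACSL1, FABP5 and VLDLR. The other 2, LPL and FABP4, were not analysed here. The tissue was retroperitoneal fat of Chinese Wuzhishan miniature male pigs, which were 6 to 7 months old at purchase. All pigs were kept on a standard diet for 7 weeks and then were fed a diet rich in fat and cholesterol (HFC) for 12 weeks. IM pigs were intact and had skin incisions only, CM pigs were castrated, and CMT pigs were castrated and injected each week with 10 mg of testosterone propionate per kg body weight in corn oil. The RNA of each group was pooled into 1 library, from 4 pigs according to the methods and from 4 to 6 according to the labels. No difference below therefore has a replicate check, and no p-value is given.

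Lipoprotein lipase is the enzyme that splits triglycerides of chylomicrons and very-low-density lipoproteins at the wall of capillaries. In white fat it sets how much circulating triglyceride the adipocytes can store. LMF1 helps the lipase to fold in the endoplasmic reticulum, GPIHBP1 carries it across the endothelial cell and anchors it at the capillary lumen, and ANGPTL4 inactivates it. The fatty acids it releases enter the adipocyte with the help of CD36 and of the transporter encoded by SLC27A1 (FATP1), ACSL1 couples them to coenzyme A, and fatty acid-binding proteins such as FABP5 carry them in the cytosol. VLDLR binds triglyceride-rich lipoproteins at the cell surface.

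Levels are given in UQRPKM, a deposited unit in which the reads on a gene are divided by its length and by the upper quartile of the library. It is per length, so that genes can be ranked within a library. Reads were recovered as the smallest whole numbers that give the values, so those of some genes may be too low. They numbered 14844063 on mRNA genes for IM, 13582288 for CM and 13449107 for CMT. A gene was called higher or lower at a fold of 1.5 or more (0.58 on the log2 scale) with at least 1 UQRPKM in both libraries, without a test. Each log2 ratio carries an exact Clopper-Pearson 95% interval from the reads, which covers counting error only, since reads of an amplified library are not independent molecules. The comparisons were CM versus IM, then CMT versus CM, then CMT versus IM. They share libraries, so the ratio of a gene in any 1 of them follows from the other 2.

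The tissue label was checked against markers. Adipocyte markers were abundant, with ADIPOQ between 63873 and 74928 UQRPKM in the 3 libraries, although 2 of the 12 (CIDEA and RETN) were listed at 0 throughout. Their sum was 156106 UQRPKM for IM, 146837 for CM and 119376 for CMT. The CMT library stood apart by skeletal muscle genes, of which 15 summed to 119 UQRPKM for IM, 110.01 for CM and 7240 for CMT. The CM library stood apart by liver genes, of which 15 summed to 2601 UQRPKM in IM, against 10661 for CM and 1767 for CMT, and APOA1 alone made up 2539 UQRPKM of the sum in IM. CKM and MB, which are muscle genes, were listed at 0 even in CMT, so a listing at 0 was not read as an absence. In bulk tissue, fewer cells of a type and less RNA per cell cannot be told apart.

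All 8 genes were above 50 UQRPKM in every library. FABP5 led in each of them, with 41.5% of the summed level of the 8 genes in IM, against 45.8% for CM and 51.1% for CMT. ANGPTL4, ACSL1, CD36 and GPIHBP1 followed between 1798 and 5289 UQRPKM, and VLDLR, LMF1 and SLC27A1 came last, in this order in each library. Within the middle group the order differed between libraries. ANGPTL4 held rank 2 in IM, 1.05-fold above ACSL1, and rank 4 in CM and CMT. CD36 held rank 4 in IM and rank 2 in the other libraries, and its lead over ACSL1 in CM was only 1.01-fold. The spread over pigs is unknown, so neighbours this close cannot be ranked with confidence. The 8 genes together reached 31907 UQRPKM in IM, 32496 in CM, and 31220 in the CMT library, so their sum differed less than their proportions.

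**Figure D1:**
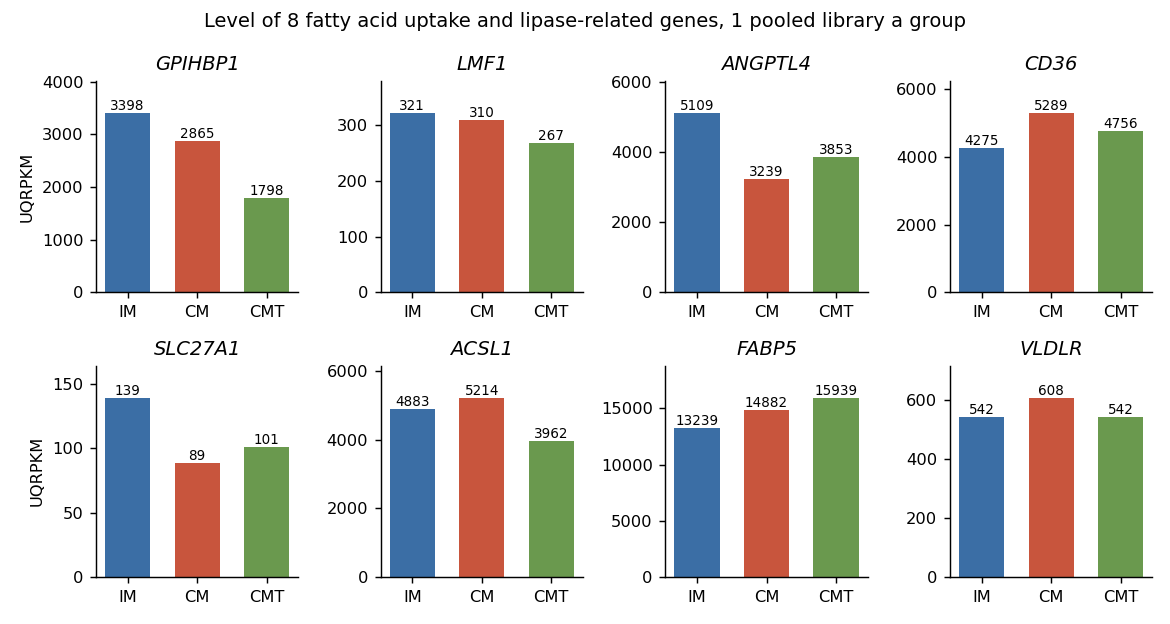
Bars give the level in UQRPKM (vertical axes from 0, scaled per gene) of the 8 genes in the IM, CM and CMT libraries, 1 pooled library a group and no error bars. GPIHBP1 stepped down from 3398 over 2865 to 1798 UQRPKM, while FABP5 went from 13239 over 14882 to 15939 UQRPKM.

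In CM versus IM, ANGPTL4 and SLC27A1 were called lower and no member was called higher. Of all 14123 mRNA genes tested, 18.8% were called, 8.38% as higher and 10.4% as lower. Among the 7578 genes that reached 50 UQRPKM in both, as all members did, the share was 5.36%, with 2.12% higher and 3.23% lower. The median log2 ratio of the 8 genes was 0.02, beside -0.06 over all genes tested, with 4 ratios above 0 and 4 below. GPIHBP1 alone was called, as lower, in CMT versus CM, where 19.5% of 14098 genes were called, 9.53% as higher and 9.97% as lower. At 50 UQRPKM or more the share was 5.81% of 7537 genes, with 2.23% higher and 3.58% lower. GPIHBP1 was again the only member called, as lower, when CMT was set against IM, where 20.7% of 14151 genes were called, 8.81% as higher and 11.9% as lower. At 50 UQRPKM or more the share was 7.51% of 7539 genes, with 2.22% higher and 5.29% lower. The medians of the 8 genes in these comparisons were -0.16 and -0.28, beside -0.02 and -0.08 over all genes. Counts of 2, 1 and 1 among 8 genes give no result about the set as a whole, and no call reached a fold of 2.

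The adipocyte markers shifted in CMT, and this bears on each comparison with that library. The median over 10 markers tested lay at -0.04 (log2) in CM versus IM but at -0.59 in CMT versus CM, with -0.56 for CMT versus IM. When ratios were taken relative to this median, GPIHBP1 was no longer called in either comparison with CMT. ANGPTL4, SLC27A1 and FABP5 were then called higher in CMT versus CM, as were CD36 and FABP5 in CMT versus IM. This reference raises every gene, member or not, by about the size of the threshold. The share of all mRNA genes called on it is not given here, so these calls are not read as particular to the members. In CMT versus CM, 71.1% of the genes with at least 50 UQRPKM had a ratio as low as that of FABP5 or lower. For SLC27A1 and ANGPTL4 this was 81.8% and 87.3%. The 10 markers differed, with ratios from -1.69 to 0.07 in CMT versus CM and from -0.98 to -0.10 in CMT versus IM. Per summed adipocyte marker level, ANGPTL4 (0.55), SLC27A1 (0.48) and FABP5 (0.40) stayed under the threshold in CMT versus CM. In CMT versus IM, CD36 (0.54) did too, while FABP5 (0.65) passed it. The part of the adipocyte shift in the member ratios was not tested.

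**Figure D2:**
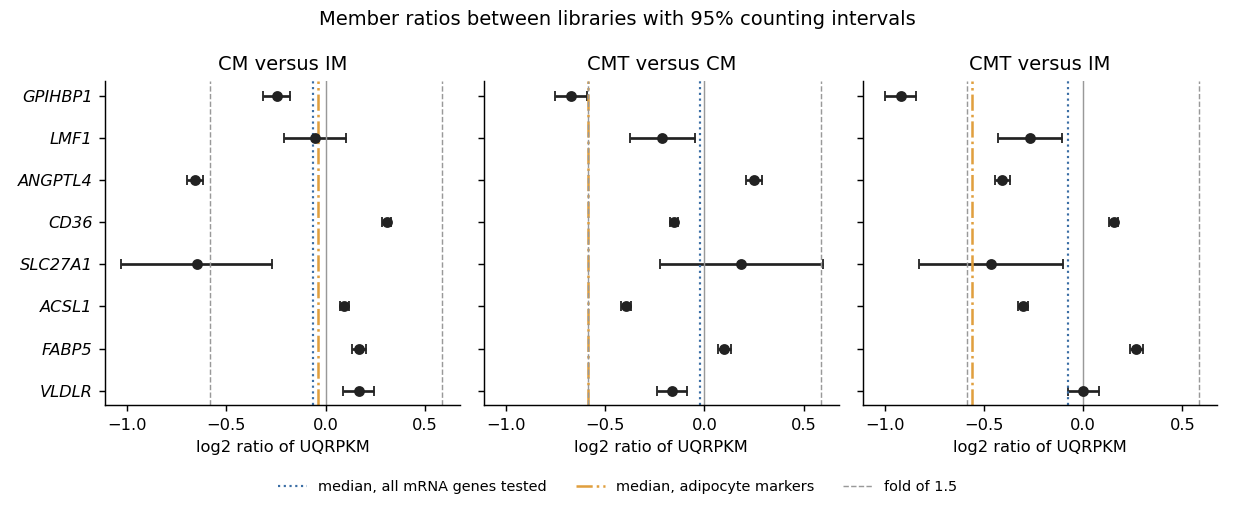
Points give the log2 ratio of UQRPKM (horizontal axis) of each gene in the 3 comparisons, bars the 95% counting interval, and vertical lines the 1.5-fold thresholds, the median of all mRNA genes tested and the median of the adipocyte markers. ANGPTL4 and SLC27A1 lie beyond the lower threshold in CM versus IM, and GPIHBP1 does in both comparisons with CMT, where the adipocyte median itself lies at -0.59 and -0.56.

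GPIHBP1, the endothelial anchor of the lipase, had 3398 UQRPKM in IM, against 2865 for CM and 1798 for CMT, from 3894, 3129 and 2019 reads. It was thus highest in IM and lowest in CMT, with the larger step between CM and CMT. The log2 ratio was -0.25 in CM versus IM (95% interval -0.31 to -0.18), which is under the threshold. It was -0.67 in CMT versus CM (-0.75 to -0.59). The ratio to IM was -0.92 in CMT (-0.997 to -0.84), a level 1.89-fold lower. Of the 7539 genes with at least 50 UQRPKM in both CMT and IM, 0.982% had a ratio as low or lower.

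Because GPIHBP1 is made by capillary endothelium, it was set beside 9 endothelial markers with a row. These summed to 10188 UQRPKM for IM, 8807 for CM and 9359 for CMT, and TIE1 was at 0 in CMT only. In CM versus IM the ratio of GPIHBP1 lay among them, with 4 markers below it, 5 above it and a list median of -0.23. In CMT versus CM it was lower than all 8 endothelial markers tested, whose median was 0.10, and it was lower than all 8 again in CMT versus IM, where their median was -0.27. TIE1, with 13, 12 and 0 reads, was not among the 8. Its intervals lay below GPIHBP1, under -1.51 in CMT versus CM and under -1.58 in CMT versus IM. PECAM1, an adhesion molecule of endothelial cells, had 4338 UQRPKM for IM, 4038 for CM and 4735 for CMT, the largest part of the endothelial sum. The markers were mixed in CMT versus IM, with 3 ratios above 0 and 5 below, and ESAM (-0.86) and EGFL7 (-0.59) were called lower. Per summed endothelial marker level, GPIHBP1 came to 33.4% in IM, against 32.5% for CM and 19.2% for CMT. Its ratio was also lower than those of 7 of 10 adipocyte markers in CMT versus CM and 8 of 10 when CMT was set against IM.

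**Figure D3:**
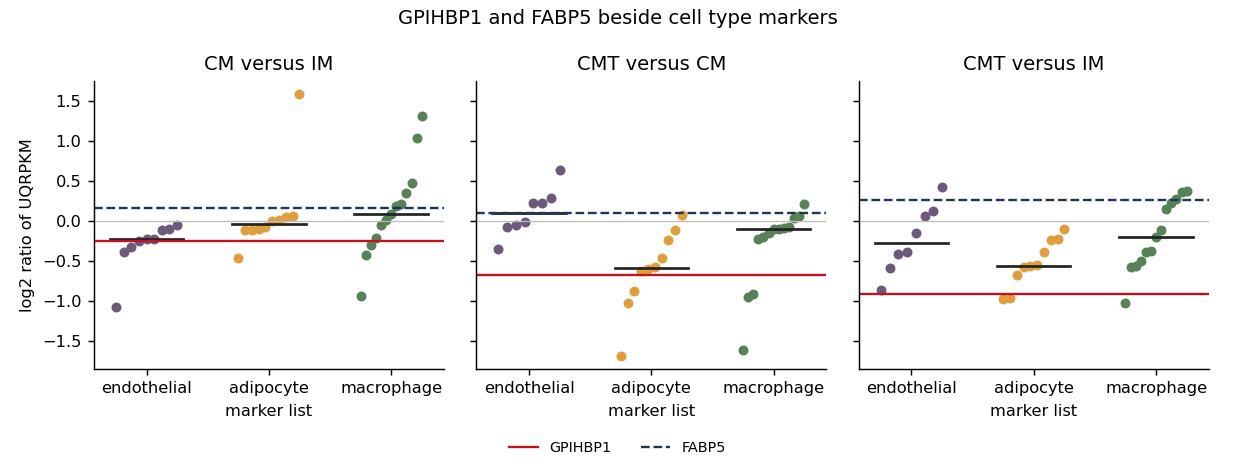
Each point is the log2 ratio of UQRPKM (vertical axis) of 1 marker gene of endothelial cells, adipocytes or macrophages (horizontal axis), short lines are list medians, and the long lines give GPIHBP1 (solid) and FABP5 (dashed). In CMT versus CM the line of GPIHBP1 at -0.67 runs below all 8 endothelial markers tested, and that of FABP5 at 0.10 runs above all 10 adipocyte markers. TIE1, at 0 in CMT, is not shown in the comparisons with CMT.

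LMF1, the folding factor of the lipase, was the most even member of the lipase system. It had 321 UQRPKM for IM, 309.8 for CM and 267 for CMT, from 713, 655 and 581 reads. A log2 ratio of -0.05 in CM versus IM had an interval from -0.21 to 0.10, so a difference smaller than that was not detectable at this depth, and the ratio was 0.02 when scaled by the median ratio of all well-measured genes. For CMT versus CM the ratio was -0.21 (-0.38 to -0.05) and in CMT versus IM it was -0.27 (-0.43 to -0.11), but relative to the adipocyte markers these became 0.37 and 0.30.

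ANGPTL4, the inhibitor of the lipase, had 5109 UQRPKM for IM, 3239 for CM and 3853 for CMT, from 13931, 8418 and 10295 reads. CM was the lowest library and CMT lay between it and IM. The log2 ratio in CM versus IM was -0.66 (-0.70 to -0.62), or a 1.58-fold lower level, and 2.28% of the genes with at least 50 UQRPKM had a ratio as low or lower. For CMT versus CM the ratio was 0.25 (0.21 to 0.29), which is under the threshold. In CMT versus IM it was -0.41 (-0.44 to -0.37), and 0.15 relative to the adipocyte markers. In CM versus IM its ratio was lower than those of all 10 adipocyte markers, and in CMT versus CM it was higher than all 10. The ratio of GPIHBP1 to ANGPTL4 levels was 0.665 in IM, against 0.885 for CM and 0.467 for CMT, so the balance of anchor to inhibitor transcripts was highest in CM and lowest in CMT.

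CD36, the membrane protein that facilitates uptake of long-chain fatty acids, was highest in CM. It had 4275 UQRPKM for IM, 5289 for CM and 4756 for CMT, from 30075, 35464 and 32790 reads, the most reads of any member. The log2 ratio was 0.31 (0.29 to 0.33) in CM versus IM. It was -0.15 (-0.17 to -0.13) for CMT versus CM, with 0.15 (0.13 to 0.18) for CMT versus IM, and no ratio was called. The direction in CMT versus CM turned to 0.43 relative to the adipocyte markers. CD36 is made by macrophages as well, and the 14 macrophage markers with a row, of which CD163 was at 0 throughout, summed to 8691 UQRPKM for IM, 7637 for CM and 7065 for CMT. C1QA and C1QC weighed most in this sum, at 2833 and 3222 UQRPKM in IM. The median of 13 macrophage markers in CM versus IM was 0.09, with 8 ratios above 0 and 5 below. LOC100520753 (CD68) and EMR1 were called higher there, at 1.31 and 1.04, and SIGLEC1 lower, at -0.94. The ratio of CD36 in CM versus IM lay above those of 9 of 13 macrophage markers, 9 of 9 endothelial markers and 9 of 10 adipocyte markers, LEP being the adipocyte marker above it. The part of these cells in the level of CD36 was not tested.

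SLC27A1, which encodes the insulin-sensitive fatty acid transporter FATP1, was the least abundant member. It had 139 UQRPKM in IM, against 88.8 for CM and 101 for CMT, from only 156, 95 and 111 reads. IM was the highest library, and CM and CMT could not be separated by counting error. The log2 ratio in CM versus IM was -0.65, a 1.56-fold lower level, with an interval from -1.03 to -0.27 that reaches well inside the threshold. The call was lost when libraries were scaled by the median ratio of well-measured genes, which gave -0.578, just short of the threshold of 0.585 in size. For CMT versus CM the ratio was 0.18 (-0.22 to 0.60), and in CMT versus IM it was -0.46 (-0.83 to -0.10), or 0.10 relative to the adipocyte markers.

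ACSL1, the acyl-CoA synthetase that activates long-chain fatty acids in adipocytes, was lowest in CMT. It had 4883 UQRPKM for IM, 5214 for CM and 3962 for CMT, from 28827, 29335 and 22918 reads. The log2 ratio was 0.09 (0.07 to 0.12) in CM versus IM. It was -0.40 (-0.42 to -0.37) for CMT versus CM and -0.30 (-0.33 to -0.28) for CMT versus IM, neither of which was called, and both turned in direction, to 0.19 and 0.26, relative to the adipocyte markers. Its ratio lay below those of all 8 endothelial markers tested in CMT versus CM, TIE1 at 0 in CMT not being among the 8. It was within the range of the adipocyte markers, 7 of 10 of which were below it.

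FABP5, a cytosolic carrier of fatty acids found in adipocytes, macrophages and endothelium, had 13239 UQRPKM for IM, 14882 for CM and 15939 for CMT, from 13453, 14412 and 15871 reads. It was thus lowest in IM and highest in CMT, which was 20.4% above IM. The log2 ratio was 0.17 (0.13 to 0.20) in CM versus IM. It was 0.10 (0.07 to 0.13) for CMT versus CM, with 0.27 (0.23 to 0.30) for CMT versus IM, all under the threshold. In both comparisons with CMT it lay above all 10 adipocyte markers. Relative to their median, a reference that raises every gene in these comparisons, its ratios were 0.69 (CMT versus CM) and 0.83 (CMT versus IM). Both are past the threshold. Per summed adipocyte marker level FABP5 came to 8.48% in IM, against 10.1% for CM and 13.4% for CMT. The log2 ratio of this share was 0.40 in CMT versus CM, under the threshold, and 0.65 in CMT versus IM.

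VLDLR, the receptor for triglyceride-rich lipoproteins, differed least between IM and CMT. It had 542 UQRPKM for IM, 608 for CM and 542 for CMT, from 2690, 2875 and 2638 reads. The log2 ratio was 0.17 (0.09 to 0.24) in CM versus IM and -0.16 (-0.24 to -0.09) in CMT versus CM, the latter 0.42 relative to the adipocyte markers. In CMT versus IM it was 0.00 with an interval from -0.08 to 0.08, and 0.56 relative to the adipocyte markers.

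Taken by role, the 3 genes of the lipase system (GPIHBP1, LMF1 and ANGPTL4) had ratios below 0 in CM versus IM, from -0.66 to -0.05, although LMF1 crossed 0 under another scaling. Of the 5 genes of uptake, activation, transport and lipoprotein binding, CD36, ACSL1, FABP5 and VLDLR had ratios between 0.09 and 0.31 and SLC27A1 was the exception. The split by role was not seen in CMT versus CM, where 1 of the 3 lipase genes and 2 of the 5 others had ratios above 0. In CMT versus IM the 3 lipase genes were again below 0, and of the 5 others 3 were above it and 2 below, with a median of 0.00. Relative to the adipocyte markers LMF1 and ANGPTL4 were above 0 there. Over all mRNA genes tested, 8015 of 14123 ratios were below 0 in CM versus IM and 8213 of 14151 in CMT versus IM. In CMT versus CM 7428 of 14098 were. Beside these shares, 3 and 5 genes give no result about either role. The patterns over the 3 libraries were compared by the distance between genes in their 2 log2 ratios to IM. ANGPTL4 and SLC27A1 were nearest, at a distance of 0.06, followed by LMF1 and ACSL1 at 0.15 and by CD36 and FABP5 at 0.18. The level of ANGPTL4 was 36.7 times that of SLC27A1 in IM, 36.5 times in CM, and 38.2 times in CMT. GPIHBP1 and FABP5 were farthest apart, at 1.26. These distances rest on 3 libraries, and that of ANGPTL4 from SLC27A1 is smaller than the counting error of SLC27A1.

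The members were set beside their relatives from the same families. ACSL1 made up 95.3% of the summed level of the ACSL synthetases in IM, against 95.2% for CM and 93.6% for CMT, and ACSL3, ACSL4 and ACSL5 lay between 62.5 and 112 UQRPKM in the 3 libraries. SLC27A1, in contrast, held rank 2 in its family, with shares of 23.2%, 18.95% and 20.95% in IM, CM and CMT, below SLC27A3 at 309, 250.1 and 236 UQRPKM. VLDLR ranked below LRP1, a large endocytic receptor, which had 1165 UQRPKM for IM, 765 for CM and 1003 for CMT and was called lower in CM versus IM with a log2 ratio of -0.61 (-0.64 to -0.57). This call was lost after scaling by the median ratio, at -0.54, and relative to the adipocyte markers, at -0.57.

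The share of FABP5 within its family differed far more than FABP5 itself. Over the 6 FABP genes with a row, which do not include FABP4, this share was 87.3% for IM, 61.8% for CM and 63.2% for CMT. The share of FABP5 among all FABP transcripts of the tissue is therefore not known here. The other large contributor was FABP3, the fatty acid-binding protein of heart and skeletal muscle, with 1917 UQRPKM for IM, 8926 for CM and 9268 for CMT, from 457, 2028 and 2165 reads over a short recovered length of 160 bases. Its log2 ratio was 2.22 (2.07 to 2.37) in CM versus IM and 2.27 (2.13 to 2.42) in CMT versus IM, and 0.05 in CMT versus CM. The summed muscle markers, at 119 UQRPKM for IM, 110.01 for CM and 7240 for CMT, are given beside it, and the part of muscle RNA in the level of FABP3 was not tested. FABP1, a carrier of liver and intestine, had 1 read in IM, against 81 for CM and 0 for CMT, in the library in which the liver genes were high.

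**Figure D4:**
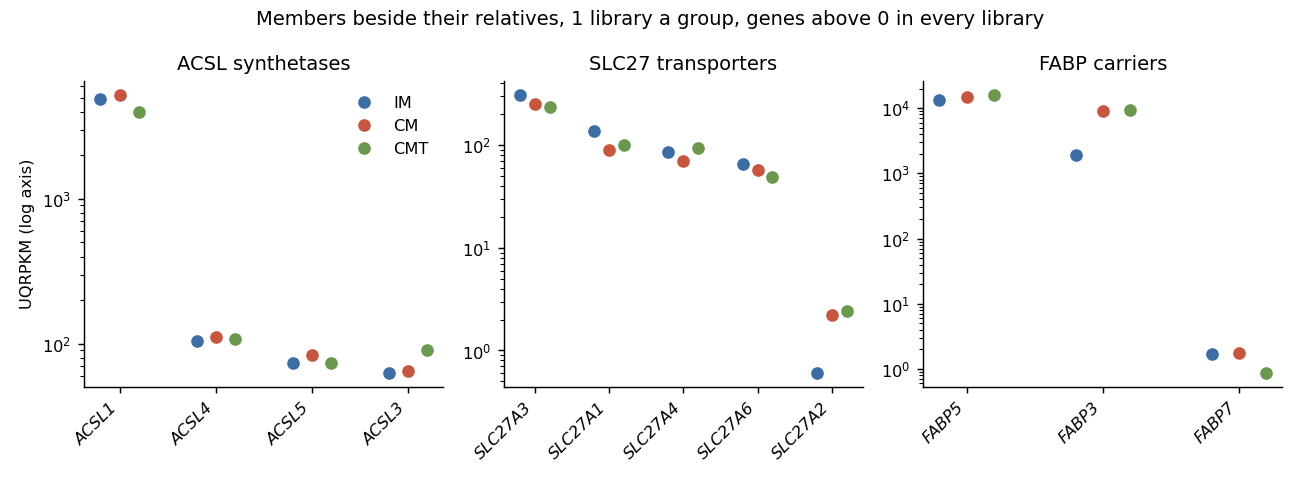
Points give the level in UQRPKM (vertical axes, log scale) of genes of 3 families above 0 in every library, coloured by library, 1 library a group. FABP4 has no row and is not shown. ACSL1 stands far above its relatives at 3962 to 5214 UQRPKM, and FABP3 is at 1917 UQRPKM in IM against 8926 and 9268 in CM and CMT.

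Of 97 other genes of the pathway, 92 had a row and 6 of these were listed at 0 in all libraries. In CM versus IM 10 of 77 tested genes were called higher and 7 lower, with a median log2 ratio of -0.03, and scaling by the median ratio left 10 higher and 3 lower. In CMT versus CM 2 of 77 were higher and 7 lower (median -0.06), and relative to the adipocyte markers 31 were higher and 5 lower. In CMT versus IM 4 of 74 were higher and 8 lower (median -0.06), and 6 higher and 5 lower after scaling by the median ratio, or 29 and 0 relative to the adipocyte markers. As shares of the genes tested, the calls came to 12.99% higher and 9.09% lower in CM versus IM, beside 8.38% and 10.4% over all mRNA genes. The shares were 2.60% and 9.09% in CMT versus CM, beside 9.53% and 9.97%, and 5.41% and 10.8% in CMT versus IM, beside 8.81% and 11.9%. Nothing particular to the pathway is read from them. These shares are of calls on the deposited values. The adipocyte reference raises every gene in both comparisons with CMT, and the share of all mRNA genes called on it is not given here. The counts on that reference are therefore not read as a rise of the pathway. Genes of lipase folding, sorting and processing are the group closest to LMF1, and 0 of 13 tested were called in each comparison. Their log2 ratios ran from -0.54 to 0.26 in CM versus IM, from -0.16 to 0.52 in CMT versus CM and from -0.585 to 0.37 in CMT versus IM, where HSPG2, a heparan sulfate proteoglycan, lay just short of the threshold. Relative to the adipocyte markers 6 of the 13 were called higher in CMT versus CM, and 5 were when CMT was set against IM. With 5.36% to 7.51% of genes called at 50 UQRPKM or more, a count of 0 among 13 is near the background. SDC1, at 41.2 UQRPKM for IM, 28.4 for CM and 40.9 for CMT, is among the 13 but below that level.

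Of the apolipoproteins that regulate the lipase in plasma, only APOC2, APOA5 and APOE could be tested in CM versus IM. These 3 were called higher, beside 8.38% of all mRNA genes tested, and so few genes give no result about the group. APOC3, APOC4 and APOA4 had 0 reads in IM and were not tested there. APOE, a ligand of lipoprotein receptors that fat makes itself, had 13950 UQRPKM for IM, 24527 for CM and 11363 for CMT, with log2 ratios of 0.81 (0.79 to 0.84) in CM versus IM and -1.11 (-1.14 to -1.08) in CMT versus CM. Relative to the adipocyte markers APOE came to -0.52 in CMT versus CM and was not called. APOC2, the activator of the lipase, had 2, 281 and 0 reads, APOC3, its inhibitor, 0, 1418 and 2, and APOC4 0, 73 and 1. APOA5 had 13, 55 and 18 reads. Of 8 liver markers tested in CM versus IM, 7 were called higher, with ALB at 2.61 UQRPKM for IM, 2910.1 for CM and 4.00 for CMT. APOA1 was not called, at 2539 UQRPKM for IM, 2339 for CM and 1714 for CMT. The part of liver RNA in the values of the apolipoproteins was not tested.

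At the membrane, FFAR4, a receptor for long-chain fatty acids listed as O3FAR1, had 246 UQRPKM in IM, against 570.4 for CM and 243 for CMT, and was called higher in CM versus IM (log2 ratio 1.21) and lower in CMT versus CM (-1.23). CD9, a tetraspanin, had 205, 663 and 339.9 UQRPKM and was called in all 3 comparisons. Its call in CMT versus CM, at -0.96, was lost relative to the adipocyte markers, at -0.38. Neither CAV1 nor CAV2, the caveolins that accompany CD36 in the adipocyte membrane, was called on the deposited values, and CAV1 stood at 3142, 3494 and 3206 UQRPKM. Relative to the adipocyte markers, a reference that raises every gene there, CAV1 and CAV2 both lay above the upper threshold in CMT versus IM.

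Regulators of endothelial fatty acid passage included MEOX2, a transcription factor of heart and fat capillaries, with 92.2 UQRPKM for IM, 42.2 for CM and 47.7 for CMT, from 71, 31 and 36 reads. It was called lower in both comparisons with IM, at -1.13 and -0.95. APLN, the ligand of the apelin receptor, was called lower in CMT versus IM, at -0.77. Relative to the adipocyte markers neither gene was called in CMT versus IM, with MEOX2 at -0.39 and APLN at -0.21. Among transcription factors, PPARG, the main regulator of adipocyte genes including several members, was not called on the deposited values, with 1454 UQRPKM for IM, 1745 for CM and 1704 for CMT. Relative to the adipocyte markers, a reference that raises every gene there, PPARG lay above the upper threshold in CMT versus IM. EPAS1, a hypoxia-inducible factor, was called lower in both comparisons with IM, each time at -0.61. Scaling by the median ratio brought EPAS1 to -0.54 and -0.51, and the adipocyte reference to -0.57 and -0.05, none of which is past the threshold. Scaling by the total also ended its call in CMT versus IM, at -0.57. CEBPB was called lower in the same comparisons, at -0.64 and -0.86, but in CM versus IM it came to -0.57 after scaling by the median ratio, and in CMT versus IM to -0.29 relative to the adipocyte markers, and neither value was called. FOXO1 was called lower in CM versus IM, at -0.65, and fell just short of the call after scaling by the median ratio, at -0.581. PPARD was called lower in CMT versus IM, at -0.65, but not after scaling by the median ratio, at -0.55, nor relative to the adipocyte markers, at -0.09. PPARA was called higher in CM and CMT than in IM, at 1.10 and 0.66, from 78, 159 and 121 reads. The difference between comparisons with a call and those without was not tested.

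**Figure D5:**
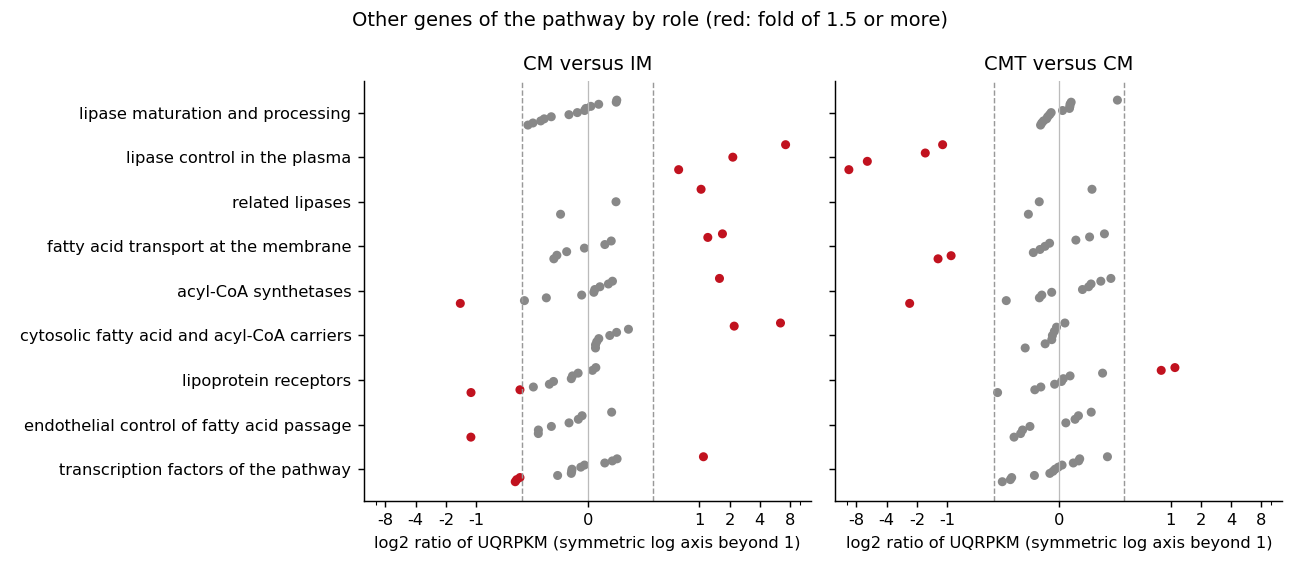
Points give the log2 ratio of UQRPKM (horizontal axis, linear to 1 and logarithmic beyond) of the other pathway genes tested, by role, in CM versus IM and CMT versus CM, with genes past a fold of 1.5 in red. The 13 genes of lipase maturation and processing stay within the dashed thresholds, although 6 pass the upper one in CMT versus CM relative to the adipocyte markers. That reference raises every gene in CMT versus CM. The plasma regulators tested lie beyond the thresholds, upward in CM versus IM (APOC2, APOA5, APOE) and downward in CMT versus CM (APOC3, APOC4, APOA5, APOE). Only APOA5 and APOE were tested in both, and APOE at -1.11 passes in CMT versus CM only without the adipocyte reference.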

How the data were processed

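Pooled RNA of visceral adipose tissue was sequenced single-end on the Ion Proton. The authors trimmed adaptors, dropped reads that were ambiguous or of low quality, aligned what remained to a Sscrofa build with MapSplice and deposited 1 RPKM value of a modified kind (UQRPKM, scaled by the upper quartile) per gene and library. The counting tool and gene annotation are not given in the sources used here, so genes with shared reads may be split in unknown ways. Positions are not given, since the gene table at hand is of another build.

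Reads were recovered as the smallest whole numbers, with a common length up to 120000 bases, that gave the 3 values of a gene, for 20838 genes above 0 (largest relative error 7.65e-09). The step was tested on simulated data, where a minority of genes came out too low by a common factor, which widens intervals. Of the genes listed, 9 were matched by another name than their symbol, through RefSeq. Named genes are the 8 members with a row and pathway genes called in a comparison with at least 50 UQRPKM in 1 library. CAV1, CAV2, PPARG, the marker genes and the relatives of members are named as examples of their lists, chosen after their values were seen. Some genes of the lists are not reported here. The members and lists were chosen with earlier results of these data known. Markers of stromal cells (9 genes) summed to 81193, 77733 and 79679 UQRPKM in IM, CM and CMT, and those of mesothelial cells (8 genes) to 154, 267 and 689. Alternatives were 2 other scalings, a reference of adipocyte markers, a pseudocount of 1, a fold of 2, minimum levels of 0 and 10 UQRPKM, and intervals that leave out a ratio of 1. Python 3.11.15, pandas 2.3.3, numpy 2.4.6, SciPy 1.17.1 and matplotlib 3.10.9 were used.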

Additional observations from a re-analysis of the deposited data

How the results depend on the processing

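The count of members called in CM versus IM was 2 and became 1 when libraries were scaled by the median ratio (ANGPTL4 remained, SLC27A1 was lost). A fold of 2 left 0 members called in each of the 3 comparisons. Relative to the adipocyte marker median, the members called were 3 in CMT versus CM and 2 for CMT versus IM, in place of 1 each, all higher, and the pathway genes called were 36 and 29 in place of 9 and 12. That reference raises every gene in these comparisons, and the share of all genes called on it is not given here. A minimum of 10 UQRPKM left 4 pathway genes in CMT versus CM, and a fold of 2 left 2 in CMT versus IM. The remaining counts stayed within 1.5 times, among them those without genes at least 10-fold higher in CM or CMT than in both other libraries, an alternative chosen after seeing the data. Total scaling and the pseudocount kept the direction of all 24 member ratios, the median ratio that of 23 (not LMF1 in CM versus IM) and the adipocyte reference that of 16. No paired analysis was possible because each group is 1 pooled library. With 1 library a group, the intervals show counting error and not the spread between pigs, and SLC27A1, with at most 156 reads, was measured least precisely.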
